A study of Vitis vinifera and Vitis x champinii x Vitis riparia and Vitis cinerea var. helleri x Vitis rupestris with 22 samples.

Results

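NRT1.5 and NRT1.8 are 2 grapevine genes named after the Arabidopsis nitrate transporters they most resemble. They were taken by their transcript identifiers in the array files, GSVIVT01013171001 for NRT1.5 (locus VIT_02s0012g01160, chromosome 2) and GSVIVT01018395001 for NRT1.8 (locus VIT_15s0021g00330, chromosome 15). Together they are 2 of 26241 genes on the array, represented by 4 of 52478 designed probes and 44 of 61657 designed spots, since each gene has 2 different probes and each probe was printed 11 times. Of the 2 probes of a gene, the brighter over all arrays is called the leading probe (CUST_50186 for NRT1.5 and CUST_34685 for NRT1.8) and the other the second probe (CUST_50185 and CUST_34686).

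RNA was taken from the roots of 3 grapevine genotypes after 4 days in nutrient solution alone (control) or with 50 mM chloride added as sodium, calcium and magnesium salts (salt). Cabernet Sauvignon is a V. vinifera wine grape, whereas 140 Ruggeri (V. berlandieri × V. rupestris) and K51-40 (V. champinii × V. riparia) are rootstocks. There were 4 control and 4 salt arrays of Cabernet Sauvignon, the same numbers of K51-40, and 3 control and 3 salt arrays of 140 Ruggeri, 22 in all. Each array held root RNA pooled from 4 rooted leaves, which are excised leaves that have formed roots of their own and carry no shoot, and each genotype is clonal. All groups, controls included, received nitrate in the nutrient solution. The probes were designed on V. vinifera gene models, so a rootstock sequence that differs from the probe may bind it less well. The roots were measured whole, so fewer cells that express a gene and less RNA per cell cannot be told apart.

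Both genes belong to the NRT1/POT family, whose members move nitrate, peptides or other small solutes across membranes together with protons. In Arabidopsis, NRT1.5 sits in root cells next to the xylem and takes part in loading nitrate into the sap that rises to the shoot. NRT1.8 in the same plant takes nitrate back out of the xylem sap, so the 2 proteins act on the same pool of nitrate in opposite directions. Salt is known to lower NRT1.5 and raise NRT1.8 transcripts in Arabidopsis roots. These roles are background from that species and were not measured on these arrays. The study also separated the stele, the inner part of the root with the xylem, from the cortex in salt-treated grapevine roots. By PCR it found less NRT1.5 in the stele than in the cortex, which it contrasts with Arabidopsis.

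The primers that the study designed for PCR on each transcript are given to identify which sequences the 2 names stand for in grapevine. They are not the array probes. Capitals are not used because no base is singled out.
NRT1.5 forward: agacacctgatgggctaaagag
NRT1.5 reverse: tgctgtcaaggtggctagga
NRT1.8 forward: gatcaggccccagatggact
NRT1.8 reverse: accccaaaatcagccattgtca

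Levels are the deposited log2 intensities, quantile normalized and adjusted with ComBat for hybridisation date by the authors, with the 11 spots of a probe averaged within each array. A difference of 1 is therefore a doubling in brightness, and the level of one probe cannot be set against that of another. The median raw intensity of an array lay between 105.5 and 462, and 72.5 to 82% of its spots were well above background. The scanner file given for replicate 3 of the Cabernet Sauvignon controls correlated at 0.99 with the deposited values of K51-40 control replicate 1 and at 0.931 with its own, whereas the other 21 scanner files correlated with their own deposited values at 0.992 or more. The deposited values of that array correlated at 0.989 or more with the other Cabernet Sauvignon arrays and at 0.948 at most with another genotype, so they were kept. The control differences of NRT1.5 and NRT1.8 from Cabernet Sauvignon, and their salt responses in it, are also given without that array. Other results that rest on that group include it unless stated. Of the tissue markers, SKOR, a potassium channel of the stele, and CESA8, a cellulose synthase of xylem walls, were well above background on 22 arrays, and HKT1, a sodium transporter next to the xylem, on 15. The photosynthesis genes LHCA3 and PSAF (GSVIVT01013629001) were also above background on 22 arrays of this root material, with group mean log2 levels of 12.25 to 13.39 and 6.74 to 7.62.

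Both genes were detected in the roots of every genotype with and without salt. All 968 spot values of the 4 probes were marked well above background, none was saturated, and 20 were marked as outlying spots by the scanner software. The lowest ratio of an array's median intensity to background was 23.6 and 7.46 for the NRT1.5 probes. For those of NRT1.8 it was 1.96 and 1.88, in Cabernet Sauvignon control replicate 1, with intensities of 49 and 47 over a background of 25. The study's methods name no background subtraction. Repeated spots agreed closely, with a median SD within an array of 0.132 for the leading and 0.156 for the second probe of NRT1.5, and of 0.142 and 0.141 for those of NRT1.8. The SD between arrays of one group was larger, at 0.26 and 0.267 for NRT1.5 and at 0.439 and 0.422 for NRT1.8, against a median of 0.162 over all probes. NRT1.8 thus varied about 3.09 times as much between arrays as between spots of the same array for its leading probe. Its SD between arrays ranked at the 98th percentile of all probes, and that of NRT1.5 at percentile 86.1.

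Under control conditions NRT1.5 was highest in Cabernet Sauvignon, lower in 140 Ruggeri and lowest in K51-40. The leading probe read 11.47, 11.62, 11.99 and 11.93 in the 4 Cabernet Sauvignon controls. It read 11.03, 11.48 and 11.19 in 140 Ruggeri and 9.98, 9.65, 9.79 and 9.62 in K51-40. All 4 K51-40 controls lay below every control of the other genotypes, and a single 140 Ruggeri array, replicate 2, reached into the range of Cabernet Sauvignon. Group means were 11.75 ± 0.25 (SD, n = 4) in Cabernet Sauvignon, 11.24 ± 0.23 (SD, n = 3) in 140 Ruggeri and 9.76 ± 0.17 (SD, n = 4) in K51-40.

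The second probe of NRT1.5 gave the same order of genotypes with wider gaps. It read 10.92, 11.04, 11.40 and 11.16 in the Cabernet Sauvignon controls, 8.88, 9.53 and 9.25 in those of 140 Ruggeri, and 8.36, 8.15, 8.11 and 7.91 in those of K51-40. On this probe the control groups of the 3 genotypes did not overlap.

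**Figure D1:**
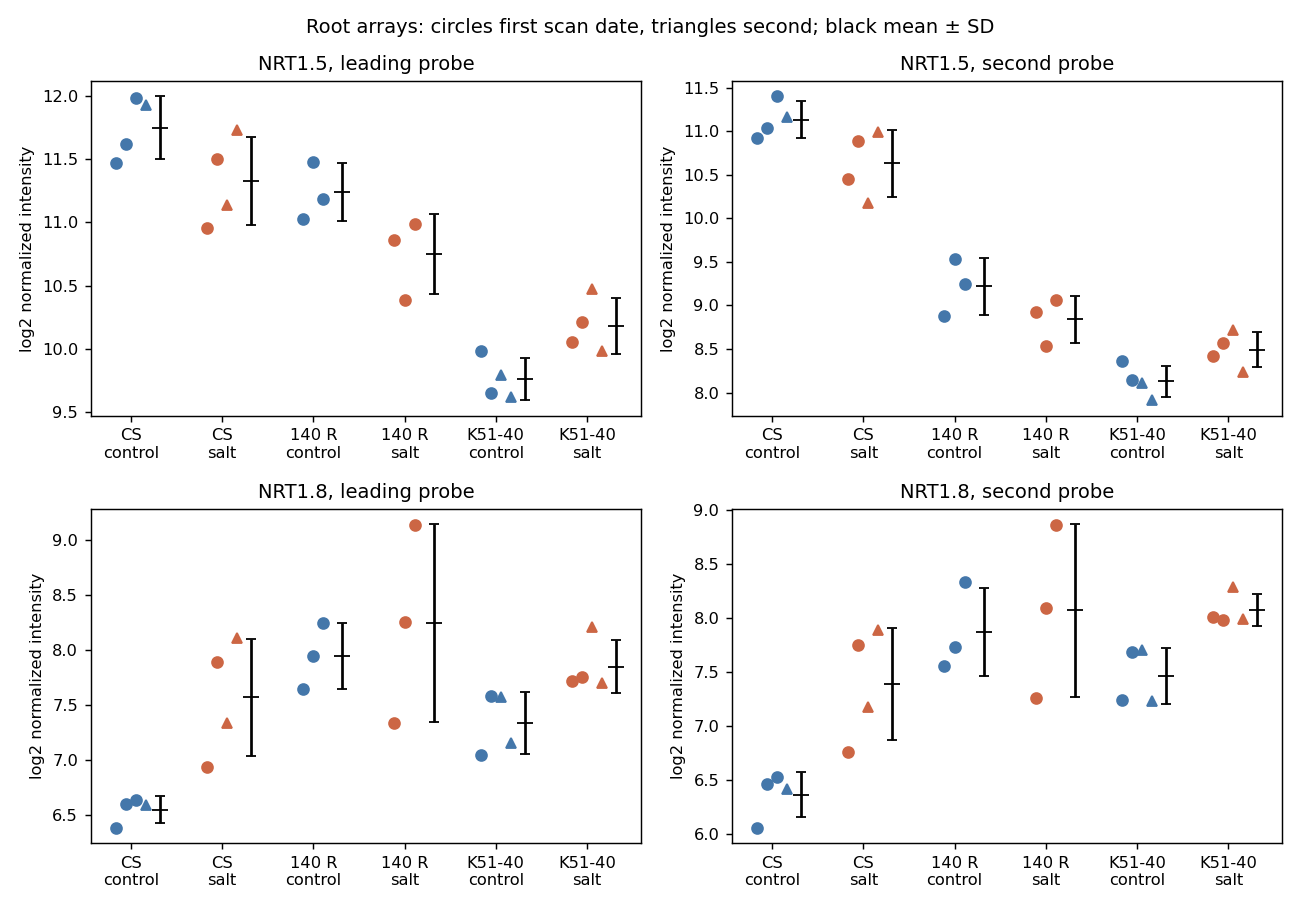
Log2 normalized intensity of both probes of NRT1.5 and NRT1.8 in each of the 22 arrays, by genotype (CS, Cabernet Sauvignon; 140 R, 140 Ruggeri) and treatment; circles are arrays of the first scan date, triangles those of the second, and black marks the group mean ± SD. NRT1.5 is lowest in the K51-40 controls on both probes, and NRT1.8 is lowest in the 4 Cabernet Sauvignon controls.

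Differences were tested with limma over all 52478 probes, and a probe was called where the Benjamini-Hochberg adjusted p was at most 0.05 and the log2 difference at least 0.5. In the controls, NRT1.5 was 2.78-fold higher in 140 Ruggeri than in K51-40 on the leading probe (log2 difference 1.48, SE 0.183, limma adjusted p = 2.29e-06) and 2.12-fold higher on the second (1.09, adjusted p = 0.000112). Both probes were called, in a comparison that called 20.5% of all probes and in which 35.9% of all probes had groups that did not overlap. K51-40 was lower than Cabernet Sauvignon by 2.00 on the leading probe (3.99-fold, SE 0.17, limma adjusted p = 1.85e-09) and by 3.00 on the second (7.98-fold, adjusted p = 3.64e-12), where 32.5% of all probes were called and 46.7% did not overlap. Ordered by p over the 52478 probes, the leading probe ranked 1810 between the rootstocks and 3357 between K51-40 and Cabernet Sauvignon.

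The gap of NRT1.5 between 140 Ruggeri and Cabernet Sauvignon was the least secure of the 3. The leading probe was lower in 140 Ruggeri by 0.52 (95% interval 0.14 to 0.9, limma adjusted p = 0.0246), with overlapping groups. The second probe was lower by 1.91 (adjusted p = 3.04e-08), with groups that did not overlap. This comparison called 30% of all probes, and 47.6% did not overlap. The leading probe was no longer called without Cabernet Sauvignon control replicate 3 (log2 difference −0.44, limma adjusted p = 0.0769), nor without replicate 4 of those controls or 140 Ruggeri control replicate 1 or 3. Computed from the scanner files of all 22 arrays without batch correction, the gap was −0.05, and −0.46 without the scanner file of that array. Without Cabernet Sauvignon control replicate 3, K51-40 remained below Cabernet Sauvignon, with differences of −1.92 on the leading and −2.9 on the second probe (limma adjusted p = 2.23e-08 and 5.35e-11).

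The 2 scan dates were not balanced, as the second held no array of 140 Ruggeri. ComBat can be run with or without the groups in its model. Over 21 arrays the deposited values lay closer to a run without the groups (mean absolute difference 0.0366 to 0.0495) than to one with them (0.0419 to 0.0977). Within the 15 arrays of the first date, the leading probe of NRT1.5 in the controls was 1.42 higher in 140 Ruggeri than in K51-40 (limma adjusted p = 0.00015) and 0.46 lower than in Cabernet Sauvignon (adjusted p = 0.0669). K51-40 was below Cabernet Sauvignon by 1.88 within the first date and by 2.22 within the second (adjusted p = 5.32e-06 and 0.000384). The difference between K51-40 and each of the other genotypes was therefore called within the first date as well.

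**Figure D2:**
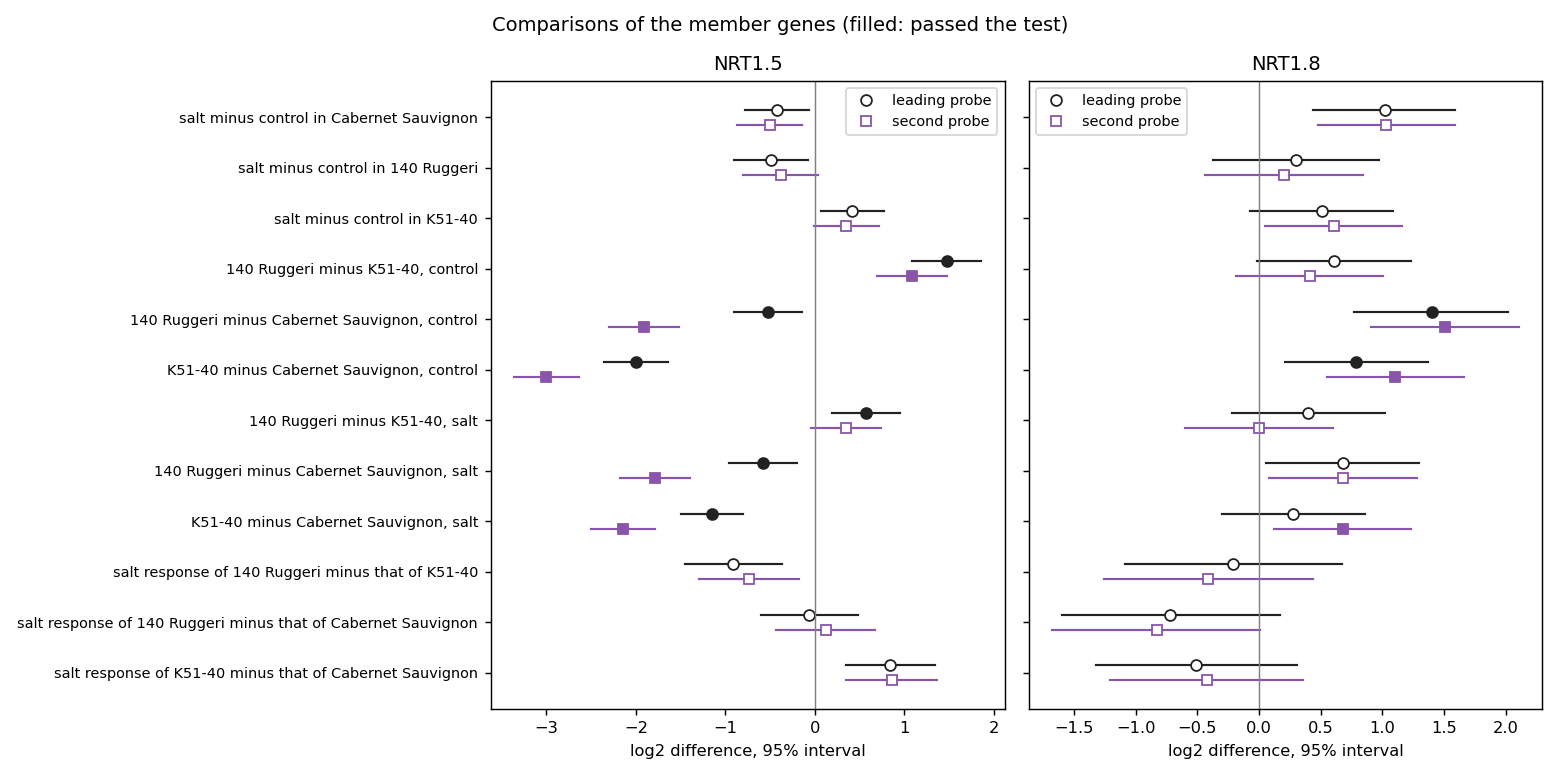
Log2 difference with its 95% interval for every comparison of NRT1.5 and NRT1.8, leading probe as circles and second probe as squares; filled symbols passed the test. For NRT1.5 the control differences of K51-40 are filled on both probes, while no salt response of either gene and no difference between salt responses is filled.

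The 2 probes of NRT1.5 did not measure the same differences between genotypes. Within an array the leading probe exceeded the second by 0.62 ± 0.1 (SD, n = 4) in the Cabernet Sauvignon controls, by 2.01 ± 0.12 (SD, n = 3) in those of 140 Ruggeri and by 1.62 ± 0.09 (SD, n = 4) in those of K51-40. The excess itself says nothing of transcript amount, but its change between genotypes shows by how much the 2 probes disagree. Over both treatments it was 1.30 larger in 140 Ruggeri than in Cabernet Sauvignon (2.46-fold, two-sided exact permutation test, p = 0.000333, adjusted over 6 tests p = 5e-04) and 0.99 larger in K51-40 than in Cabernet Sauvignon (1.99-fold, exact permutation p = 0.000155, adjusted p = 0.000465). It was also 0.30 larger in 140 Ruggeri than in K51-40 (exact permutation p = 0.000333, adjusted p = 5e-04). The excess in every array of the rootstocks was above that in every Cabernet Sauvignon array.

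The probes of NRT1.8 lay closer together. Their difference in K51-40 was 0.36 below that in Cabernet Sauvignon and 0.30 below that in 140 Ruggeri (exact permutation p = 0.000155 and 0.000999, adjusted p = 0.000465 and 0.0012), and 140 Ruggeri and Cabernet Sauvignon differed by 0.06 (exact permutation p = 0.327). Between salt and control the difference between the probes shifted by 0.11 at most in either gene (6 exact permutation tests, each with p of 0.1 or more, where 3 against 3 arrays cannot go below 0.1). How well a probe binds each genotype's transcript and how much transcript there is cannot be told apart between genotypes on these arrays alone. The study notes that its NRT1.5 probe matched its target less well than the limit set for the other probes, without saying which of the 2 probes that was. The study also compared both transcripts by PCR, which does not use the array probes, between genotypes in the controls and between salt and control. It reports a difference in NRT1.5 between the rootstocks in the same direction as on both array probes. For salt it reports, from PCR and arrays, small changes of the 2 genes in opposite directions in 140 Ruggeri and Cabernet Sauvignon, and not in K51-40. How much of each array difference between genotypes comes from probe binding was not tested. Comparisons of salt with control within a genotype use the same sequence on both sides.

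**Figure D3:**
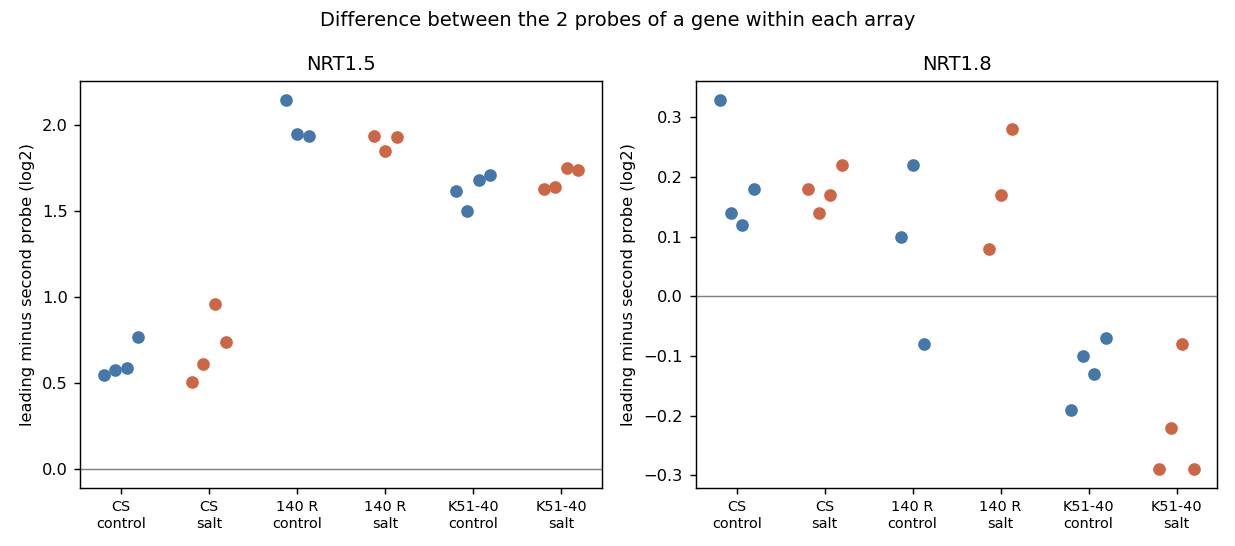
Leading minus second probe (log2) within each array, for NRT1.5 and NRT1.8, by genotype and treatment; each point is 1 array. For NRT1.5 the Cabernet Sauvignon arrays form a low group and the 140 Ruggeri arrays the highest one, and for NRT1.8 all 8 K51-40 arrays are below 0.

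With salt, NRT1.5 was lower than in controls in Cabernet Sauvignon and 140 Ruggeri and higher in K51-40, but none of the 3 responses passed the test across all probes. In Cabernet Sauvignon with salt the leading probe read 10.96, 11.50, 11.14 and 11.73, a range that overlapped that of the controls (11.47 to 11.99). Its difference was −0.42 (95% interval −0.78 to −0.07, limma adjusted p = 0.28), and that of the second probe −0.50 (adjusted p = 0.197), in a comparison that called 0.798% of all probes. Without Cabernet Sauvignon control replicate 3 the leading probe gave −0.34 (limma adjusted p = 0.573). From the scanner files of all 22 arrays without batch correction the leading probe gave 0.05, and −0.36 when the scanner file of Cabernet Sauvignon control replicate 3 was left out. In 140 Ruggeri with salt it read 10.86, 10.39 and 10.99, each below the lowest of the 3 controls (11.03). The difference was −0.49 (95% interval −0.9 to −0.08, limma adjusted p = 0.504) and that of the second probe −0.38 (adjusted p = 0.644). On the second probe the salt arrays read 8.92, 8.54 and 9.06 and overlapped the controls, of which the lowest was 8.88. This comparison called 0.0343% of all probes, and 12.4% of all probes had groups that did not overlap.

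In K51-40 with salt the leading probe of NRT1.5 read 10.05, 10.21, 10.47 and 9.98. The lowest of these did not exceed the highest control, 9.98, and the other 3 were above every control. The difference was 0.42 (95% interval 0.07 to 0.77, limma adjusted p = 0.223), and that of the second probe 0.35 (adjusted p = 0.35), where 2.1% of all probes were called. The response of K51-40 exceeded that of Cabernet Sauvignon by 0.84 (95% interval 0.35 to 1.34, limma adjusted p = 0.11), and that of 140 Ruggeri was 0.91 below that of K51-40 (95% interval −1.45 to −0.37, adjusted p = 0.192). Those of 140 Ruggeri and Cabernet Sauvignon differed by −0.06 (95% interval −0.6 to 0.48, limma adjusted p = 1). No difference between the responses was called on either probe, in contrasts that called 0.673%, 0.112% and 0.00953% of all probes.

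The genotypes kept their order for NRT1.5 under salt, with smaller gaps to K51-40 than in the controls. The means of the leading probe were 11.33 ± 0.35 (SD, n = 4) in Cabernet Sauvignon, 10.75 ± 0.32 (SD, n = 3) in 140 Ruggeri and 10.18 ± 0.22 (SD, n = 4) in K51-40. K51-40 was below Cabernet Sauvignon by 1.15 (limma adjusted p = 6.08e-06) and below 140 Ruggeri by 0.57 (adjusted p = 0.0195), where 33.6% and 21.2% of all probes were called. The second probe was called in the first of these (−2.14, limma adjusted p = 9.32e-10) but not in the second (0.35, adjusted p = 0.164). 140 Ruggeri was below Cabernet Sauvignon by 0.58 on the leading probe (limma adjusted p = 0.0135) and by 1.79 on the second (adjusted p = 9.02e-08), where 27.5% of all probes were called.

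The call on the leading probe between 140 Ruggeri and K51-40 under salt was lost without 140 Ruggeri salt replicate 1 or 3 or K51-40 salt replicate 1 or 4, over a range of 0.44 to 0.75 for single arrays left out. That between 140 Ruggeri and Cabernet Sauvignon was lost without 140 Ruggeri salt replicate 2 or Cabernet Sauvignon salt replicate 4, over a range of −0.71 to −0.4. Within the first scan date these differences were 0.61 and −0.48 (limma adjusted p = 0.0403 and 0.1). K51-40 was below Cabernet Sauvignon under salt by 1.09 within the first date and by 1.21 within the second (adjusted p = 0.00187 and 0.00265).

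Over the 6 groups the leading probe of NRT1.5 ran from Cabernet Sauvignon control through Cabernet Sauvignon salt, 140 Ruggeri control, 140 Ruggeri salt and K51-40 salt down to K51-40 control. Of the 5 steps between neighbours in this order, the one from 140 Ruggeri salt to K51-40 salt was called (0.57), and the others were 0.09 to 0.49 with adjusted p of 0.223 to 0.717. On the second probe the order was the same, but the step from Cabernet Sauvignon salt to 140 Ruggeri control was the one called (95% interval 1.01 to 1.8, limma adjusted p = 2.36e-06).

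NRT1.8 was lowest in Cabernet Sauvignon in the controls, where NRT1.5 was highest. The leading probe read 6.38, 6.60, 6.64 and 6.59 in the Cabernet Sauvignon controls, 7.65, 7.95 and 8.25 in those of 140 Ruggeri and 7.05, 7.58, 7.57 and 7.16 in those of K51-40. Each Cabernet Sauvignon control was below every control of the rootstocks. Means were 6.55 ± 0.12 (SD, n = 4), 7.95 ± 0.3 (SD, n = 3) and 7.34 ± 0.28 (SD, n = 4) in that order. The second probe gave 6.36 ± 0.21 (SD, n = 4), 7.87 ± 0.41 (SD, n = 3) and 7.46 ± 0.26 (SD, n = 4).

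NRT1.8 was 2.63-fold higher in 140 Ruggeri than in Cabernet Sauvignon controls (log2 difference 1.4, SE 0.3, limma adjusted p = 0.000576) and 2.85-fold higher on the second probe (1.51, adjusted p = 0.000172). It was 1.73-fold higher in K51-40 than in Cabernet Sauvignon (0.79, SE 0.278, limma adjusted p = 0.0219) and 2.15-fold on the second probe (1.10, adjusted p = 0.0015). All 4 of these were called with groups that did not overlap, beside the 30% and 32.5% of all probes called and the 47.6% and 46.7% without overlap in these 2 comparisons. The 2 rootstocks differed by 0.61 (95% interval −0.02 to 1.23, limma adjusted p = 0.131) on the leading and by 0.41 (adjusted p = 0.309) on the second probe, which was not called. Both rootstocks stayed above Cabernet Sauvignon when its control replicate 3 was left out (1.43 for 140 Ruggeri, limma adjusted p = 0.00137, and 0.82 for K51-40, adjusted p = 0.0336).

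Within the first scan date, NRT1.8 was 2.66-fold higher in 140 Ruggeri than in Cabernet Sauvignon controls (limma adjusted p = 0.00398). On the leading probe K51-40 exceeded it by 0.77 within the first date and by 0.78 within the second (adjusted p = 0.132 and 0.108), and was called in neither, whereas the second probe was called in both (1.11 and 1.06, limma adjusted p = 0.0298 and 0.0287). The call for K51-40 on the leading probe was also lost without Cabernet Sauvignon control replicate 1 (range 0.71 to 0.89 for single arrays left out, limma adjusted p = 0.00562 to 0.0606) and without K51-40 control replicate 2 or 3, while the second probe was called with each of the 22 arrays left out.

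With salt, NRT1.8 had a higher mean in all 3 genotypes, with the widest gap in Cabernet Sauvignon, and none of the responses passed the test across all probes. In Cabernet Sauvignon with salt the leading probe read 6.94, 7.89, 7.34 and 8.11. Each value was above the highest control, 6.64, and the 4 salt arrays spanned more than the 4 controls. The difference was 1.02 (2.02-fold, SE 0.278, 95% interval 0.44 to 1.59, limma adjusted p = 0.0873). On the second probe it was 1.03 (2.05-fold, SE 0.267, adjusted p = 0.0693), again without overlap, which held for 9.04% of all probes in this comparison. Ordered by p, the leading probe ranked 882 of 52478.

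The adjusted p of this response lay near the threshold and crossed it in some settings. With slide as a term of the model the difference was 1.25 (limma adjusted p = 0.00701), and it was 1.4 and 1.14 within the 2 slides that held both treatments. With arrays of the same replicate number blocked within each genotype it was called on both probes (1.02 and 1.03, limma adjusted p = 0.00885 and 0.00302), although one of the 4 pairs of Cabernet Sauvignon arrays, replicate 3, did not deviate together. Unlike the other pairs, the arrays of replicate 3 came from different scan dates, so the block cannot be told apart from scan date. Within the scan dates it was 0.87 and 1.14 (limma adjusted p = 0.534 and 0.75). It was called without 140 Ruggeri salt replicate 1 or 3 or Cabernet Sauvignon salt replicate 1 (limma adjusted p = 0.0292 at the lowest), and without Cabernet Sauvignon control replicate 3 it was 1.05 (adjusted p = 0.177). All values for single arrays left out fell between 0.84 and 1.23.

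In 140 Ruggeri with salt, NRT1.8 read 7.34, 8.26 and 9.14 on the leading probe against controls of 7.65, 7.95 and 8.25. The salt arrays lay both below and above the controls, with an SD of 0.9 against 0.3, and replicate 3 was the highest of all 22 arrays. The difference was 0.30 (95% interval −0.37 to 0.97, limma adjusted p = 0.892), and without salt replicate 3 it was −0.15. The second probe gave 7.26, 8.09 and 8.86 in the same arrays, so the spread was shared by both probes. Each salt array was on a different slide, and the slide of salt replicate 1 held no 140 Ruggeri control. With slide as a term of the model, the difference on the leading probe was 0.62 (limma adjusted p = 0.468). Within the slides that held both treatments it was 0.31 and 1.2. The part of slide in this spread was not tested.

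In K51-40 with salt, NRT1.8 read 7.72, 7.76, 8.21 and 7.70, all above the highest control, 7.58. The difference was 0.51 (95% interval −0.07 to 1.09, limma adjusted p = 0.418). On the second probe it was 0.61 (95% interval 0.05 to 1.16, limma adjusted p = 0.275), also without overlap, which held for 7.47% of all probes. When arrays of the same replicate number were paired in the model, the second probe was called at the same difference (0.61, limma adjusted p = 0.033), and the leading probe was not. The salt responses of NRT1.8 differed between genotypes by −0.72 (140 Ruggeri against Cabernet Sauvignon, 95% interval −1.6 to 0.17), −0.51 (K51-40 against Cabernet Sauvignon, −1.32 to 0.31) and −0.21 (140 Ruggeri against K51-40, −1.09 to 0.67), with limma adjusted p of 1, 0.626 and 0.934.

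Under salt the genotypes were closer for NRT1.8. The means of the leading probe were 7.57 ± 0.53 (SD, n = 4) in Cabernet Sauvignon, 8.25 ± 0.9 (SD, n = 3) in 140 Ruggeri and 7.85 ± 0.24 (SD, n = 4) in K51-40, and no pair was called (differences 0.28 to 0.68, limma adjusted p = 0.0758 to 0.425). On the second probe K51-40 exceeded Cabernet Sauvignon by 0.68 (limma adjusted p = 0.0383), the one call among the pairs under salt, which was lost in 10 of 16 other processing settings (0.4 to 0.74). Within the first scan date, 140 Ruggeri exceeded Cabernet Sauvignon by 0.84 and K51-40 by 0.51 (limma adjusted p = 0.111 and 0.358). Ordered by mean, the leading probe ran from 140 Ruggeri salt through 140 Ruggeri control, K51-40 salt, Cabernet Sauvignon salt and K51-40 control to Cabernet Sauvignon control, and the last of these 5 steps was the only one called (0.79).

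As the 2 genes have opposite roles in Arabidopsis, the log2 difference between their leading probes was also followed within each array, a measure chosen after the values were seen. Its change with salt was 1.44 towards NRT1.8 in Cabernet Sauvignon (2.72-fold, two-sided exact permutation test, p = 0.0286, the smallest that 4 against 4 arrays can give, adjusted over 3 genotypes p = 0.0858). The 4 salt arrays were all higher than the 4 controls. The change was 0.79 in 140 Ruggeri (exact permutation p = 0.3, where 3 against 3 arrays cannot go below 0.1) and 0.09 in K51-40 (exact permutation p = 0.8). Over the 22 arrays the leading probes of the 2 genes correlated at −0.218, and at 0.477 after the group means were taken out, a description over arrays that share genotype and treatment.

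The array also carried 51 further genes of the NRT1/POT family for which the study also spotted probes repeatedly, a list the study did not choose on these samples. Under salt none of them was called in Cabernet Sauvignon or 140 Ruggeri (medians −0.01 and −0.01, ranges −0.55 to 0.84 and −0.35 to 0.48), beside 0.594% higher and 0.29% lower of all genes in Cabernet Sauvignon and 0.0381% and 0.00381% in 140 Ruggeri. At an unadjusted limma p under 0.05 there were 9 and 2 of the 51, beside 13.6% and 8.97% of all genes. In K51-40, 2 were higher and 1 was lower (median −0.02), where 1.09% and 1.25% of all genes were called. These counts came to between 0 and 2 higher and between 0 and 2 lower under other processing. NRT1.4, a nitrate transporter that stores nitrate in the leaf petiole of Arabidopsis, fell by 1.05 (limma adjusted p = 0.0145), and a peptide transporter (GSVIVT01027876001) rose by 0.96 (adjusted p = 0.0225). A gene annotated as nitrate transporter 1:2 (GSVIVT01008064001) rose by 0.62 (limma adjusted p = 0.0322). Of 39 other settings, single arrays left out included, the calls of these genes were lost in 10, 12 and 16 in that order, with no change of sign. The salt response of NRT1.8 in Cabernet Sauvignon was larger in size than that of any of the 51, and 4 of them had a larger difference than NRT1.5.

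Between genotypes many more of the family differed, as did many of all probes. In the controls, 6 of the 51 were higher and 4 lower in 140 Ruggeri than in K51-40, where 9.97% and 10.6% of all genes were called by their leading probe. Against Cabernet Sauvignon, 10 were higher and 9 lower in 140 Ruggeri (16.4% and 13.5% of all genes) and 12 higher and 11 lower in K51-40 (17.6% and 14.6%). The medians of the list were 0.00, 0.00 and 0.04, beside 0.00, 0.06 and 0.07 over all genes. NTL1 (GSVIVT01037125001) was the 1 gene of the 51 that exceeded NRT1.5 in size between the rootstocks, being lower in 140 Ruggeri by 2.6 (limma adjusted p = 1.12e-09), and was 4.14 higher in K51-40 than in Cabernet Sauvignon.

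NAXT1 and NAXT2, named after Arabidopsis exporters of nitrate from root cells, were ordered like NRT1.5 in the controls. NAXT1 was 1.27 higher in 140 Ruggeri than in K51-40 and lower in K51-40 than in Cabernet Sauvignon by 2.03 (limma adjusted p = 2.67e-05 and 3.52e-09). NAXT2 was 1.03 higher and 2.54 lower in the same comparisons (adjusted p = 0.000141 and 3.55e-11). NRT1.4 differed in the opposite direction in these comparisons, being lower in 140 Ruggeri than in K51-40 by 1.10 and 1.25 higher in K51-40 than in Cabernet Sauvignon (adjusted p = 0.00156 and 9.89e-05). The study singled out NAXT1, NAXT2 and NRT1.4 for their differences on these samples, so their calls are not independent evidence. Against Cabernet Sauvignon, NRT1.8 in 140 Ruggeri (1.4) was exceeded in size by 5 of the 51, led by 2 POT family genes (GSVIVT01008072001 with 2.14 and GSVIVT01026072001 with 2.11).

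**Figure D4:**
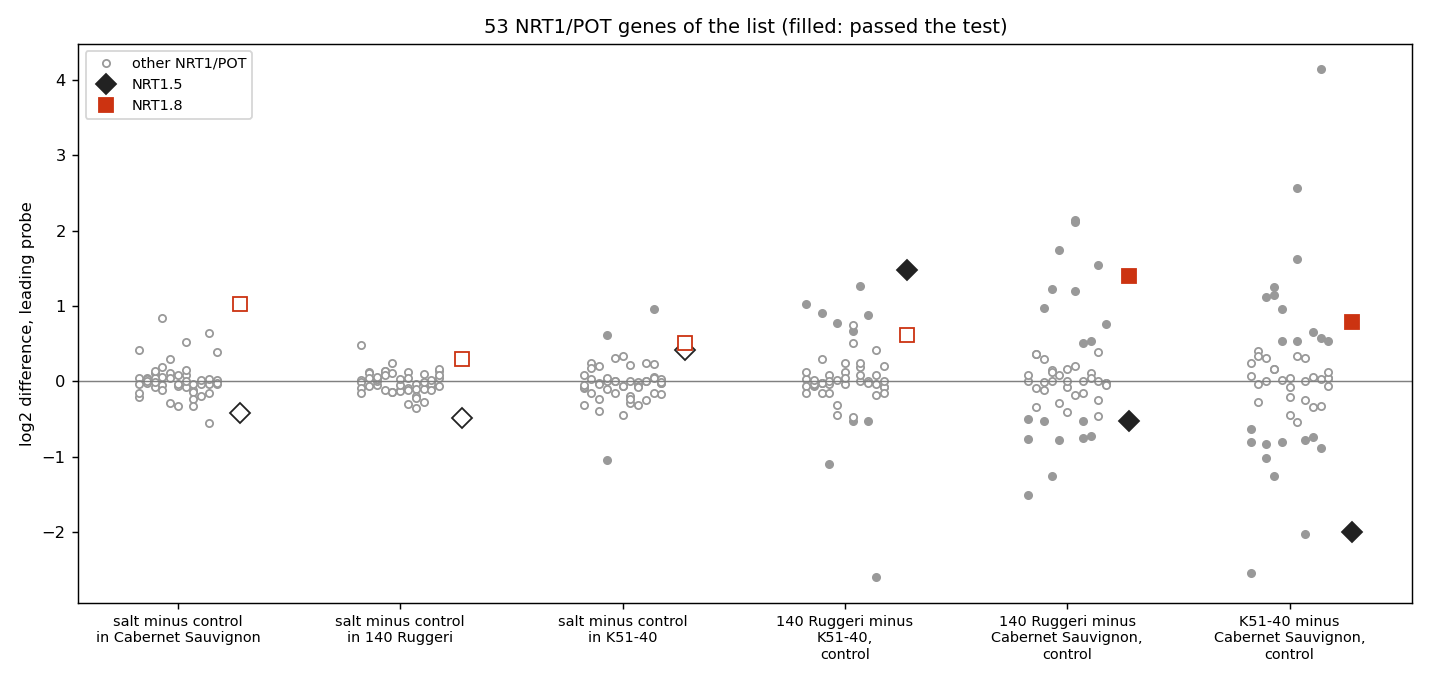
Log2 difference of the leading probe for NRT1.5 (diamonds), NRT1.8 (squares) and the other 51 NRT1/POT genes (grey circles) in the 3 salt comparisons and the 3 control comparisons between genotypes; filled symbols passed the test. Salt responses sit near 0 for most of the family, while genotype differences reach 4.14.

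Another 4 genes that transport or reduce nitrate were set beside NRT1.5 and NRT1.8. No salt response of NRT1.5 or NRT1.8 had passed the test across all probes. These 4 genes come from lists that the study chose on these samples and are not independent evidence of direction. Nitrate reductase 2, which turns nitrate into nitrite, fell by 0.54 in Cabernet Sauvignon with salt (limma adjusted p = 0.0269), the 1 salt call among the 4 genes and 3 genotypes, where 0.29% of all genes were called lower in Cabernet Sauvignon. That call was lost in 14 of 39 other settings, single arrays left out included. In the controls the nitrate transporters NRT2.5 and NRT2.7 were 0.63 and 1.59 higher in 140 Ruggeri than in K51-40 (limma adjusted p = 0.00597 and 3.5e-05), as NRT1.5 was. NRT2.7 was well above background on 21 arrays, with group mean log2 levels of 5.99 to 7.8. Nitrite reductase, the next enzyme of the pathway, was 1.08 higher there (adjusted p = 5.9e-06). Against Cabernet Sauvignon, where NRT1.5 was lower, NRT2.7 and nitrite reductase were 0.84 and 0.88 higher in 140 Ruggeri (limma adjusted p = 0.008 and 3.35e-05), and NRT2.5 gave −0.49 (adjusted p = 0.0227, under the minimum change).

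The 3 markers of cells in and around the xylem differed among themselves. In the controls HKT1 was lower in 140 Ruggeri than in K51-40 by 0.79 and CESA8 by 0.75 (limma adjusted p = 2.19e-05 and 0.00704), where NRT1.5 was 1.48 higher. SKOR, which releases potassium into the xylem, gave 0.35 in the direction of NRT1.5 (adjusted p = 0.02, under the minimum change). Between K51-40 and Cabernet Sauvignon, HKT1 was 1.47 and CESA8 0.70 higher in K51-40 (adjusted p = 1.89e-10 and 0.00391), while SKOR gave 0.13 (adjusted p = 0.343). Between 140 Ruggeri and Cabernet Sauvignon, where the gap of NRT1.8 was widest, HKT1 was 0.69 higher in 140 Ruggeri (limma adjusted p = 4.99e-05), SKOR gave 0.48 (adjusted p = 0.00145, under the minimum change) and CESA8 −0.05 (adjusted p = 0.875).

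With salt, SKOR gave −0.35 in Cabernet Sauvignon, −0.29 in 140 Ruggeri and 0.11 in K51-40 (limma adjusted p = 0.131, 0.522 and 0.726), the signs of NRT1.5 in each genotype, and none was called. In K51-40 with salt HKT1 fell by 0.54 and CESA8 by 0.77 (limma adjusted p = 0.00799 and 0.0301), and neither was called in the other genotypes. Both calls were lost in some of 39 other settings, 10 for HKT1 and 15 for CESA8. Of the 2 photosynthesis genes, PSAF fell by 0.54 in K51-40 (limma adjusted p = 0.0399) and LHCA3 gave 0.10 (adjusted p = 0.862). The aquaporins TIP2 and PIP2 rose there by 1.94 and 0.73 (adjusted p = 2.99e-06 and 0.044). The part of these differences in the values of NRT1.5 and NRT1.8 was not tested. The xylem markers, photosynthesis genes and aquaporins were taken from the study's tables. Many of those tables list genes that differed on these same samples, so these calls are not independent evidence.

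Among 40731 probes detected on at least 11 arrays, each gene was taken by whichever probe followed the leading probe of NRT1.5 or NRT1.8 most closely. The genes most like NRT1.5 over the 22 arrays were GSVIVT01036869001 (Pearson r = 0.955) and GSVIVT01020162001 (r = 0.945). They were followed by an indole-3-acetic acid amido synthetase, an enzyme that couples the hormone auxin to amino acids (GSVIVT01001112001, r = 0.939). After the group means were taken out these fell to 0.713, 0.418 and 0.493. For NRT1.8 they were GSVIVT01025061001 (r = 0.897), GSVIVT01025583001 (r = 0.868) and GSVIVT01002602001 (r = 0.866), with 0.84, 0.718 and 0.66 within groups. The 2 probes of NRT1.5 correlated at 0.918 with each other and those of NRT1.8 at 0.965. These are descriptions over arrays that share genotype, treatment and scan date.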

How the data were processed

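RNA of 22 root samples was hybridised to custom 60-mer one-colour Agilent arrays. Per the labels and the study's methods, the authors took median spot intensity from Agilent Feature Extraction 10.7.3, log2 transformed and quantile normalized it and corrected hybridisation date with ComBat; these deposited log2 values were used here, joined to probe names by spot number. Column medians were 7.53 to 7.55. The deposited scanner intensity values served for detection flags and alternatives. The array number limits the precision.

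Spots of a probe were averaged. Group means of the 6 groups were fitted over all 52478 probes with limma 3.58.1 in R 4.3.3 (16 residual degrees of freedom), with Benjamini-Hochberg adjustment. A probe was called where adjusted p did not exceed 0.05 and the log2 difference reached 0.5. On simulated data, 79, 74 and 84 of 100 probes changed by 0.75 were recovered over 52478 probes for the salt responses of Cabernet Sauvignon, of 140 Ruggeri and of K51-40. The changed probes were drawn at random from all probes, whose median SD between arrays was 0.162. The leading probes of NRT1.8 and NRT1.5 had SDs of 0.439 and 0.26, so these recoveries do not carry over to them. The series states biological replicates of pooled plants, so p-values measure the spread between such pools. Named were the 2 genes with both probes, at most the 3 largest called increases and decreases of the other NRT1/POT genes, NAXT1, NAXT2 and NRT1.4, the nitrate list and, per gene, the 3 genes most like it. Members and lists were chosen with earlier results of these data known.

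Replicate numbers are shared between control and salt. Deviations of same-numbered arrays correlated at 0.242 to 0.346 in 140 Ruggeri and 0.309 to 0.427 in K51-40. In Cabernet Sauvignon they correlated at 0.125, 0.216, −0.352 and 0.373 for replicates 1 to 4, where replicate 3 kept the numbers from being taken as pairs. Same-numbered arrays shared a scan date, except for replicate 3 of Cabernet Sauvignon. A pairing of plants therefore cannot be told apart from a shared scan date. The alternatives comprised reprocessed scanner values, batch and slide terms, blocks, filters and each array left out. No column of the authors' own comparisons was used.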

Additional observations from a re-analysis of the deposited data

Results flagged for a closer look

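In the K51-40 roots with salt, replicate 3 stood apart from the other 3 arrays for NRT1.8. Its leading probe read 8.21 against 7.70 to 7.76 in the others, a gap of 0.876 of the whole range of the group, and its second probe read 8.29 against 7.98 to 8.01, a gap of 0.912. Both gaps exceed the 95% critical value of Dixon's test for 4 arrays. The 2 values come from the same RNA and the same gene, so they are not separate events. They were the only ones to pass among 16 tests, which covered 4 probes in each of the 4 groups of 4 arrays. As the 2 probes of a gene vary together, this count cannot be set against the rate that chance would give.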

How the results depend on the processing

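The 48 results on NRT1.5 and NRT1.8 were recomputed under 17 other settings and with each of the 22 arrays left out. The planned background correction on mean signals could not be run, as the files hold no mean foreground; its version on median signals, the scan dates taken singly and the 21-array versions of the scanner settings were chosen after seeing the data. Where a call or direction differed the cause was not tested, except that the 22-array scanner settings include the file of Cabernet Sauvignon control replicate 3 that resembles K51-40. Values are log2 differences, of the leading probe unless the second is named. From scanner values of 22 arrays with ComBat, the salt difference of NRT1.5 in Cabernet Sauvignon was 0.14 on the second probe; without batch correction it was 0.05 and 0.34 on the 2 probes, and from processed signals 0.04 and 0.39, all turned in sign. NRT1.5 in 140 Ruggeri against Cabernet Sauvignon controls was −0.03, −0.05 and 0.02 in these 3 settings, with salt −0.5, −0.61 and −0.55, and against K51-40 with salt 0.71, 0.59 and 0.62, none called. NRT1.8 in K51-40 against Cabernet Sauvignon controls was 0.55, 0.57 and 0.74, not called, and the response of NRT1.5 on the second probe in 140 Ruggeri against Cabernet Sauvignon was −0.55, −0.75 and −0.83, turned in sign. With 21 arrays, NRT1.5 in 140 Ruggeri against Cabernet Sauvignon controls was −0.42, −0.46 and −0.38 and, with median-signal normexp, −0.46, not called. NRT1.8 in K51-40 against Cabernet Sauvignon was 0.76, 0.97 and 0.62 in the last 3, not called, and that second-probe response −0.03, −0.05 and −0.01, turned in sign. With ComBat on 21 arrays NRT1.8 was called in 140 Ruggeri against K51-40 controls (0.81) and against Cabernet Sauvignon with salt (0.81). With a scan date term NRT1.5 in 140 Ruggeri against Cabernet Sauvignon controls was −0.49, not called. Within scan date 1 it was −0.46 and with salt −0.48, and NRT1.8 in K51-40 against Cabernet Sauvignon controls was 0.77, and 0.78 within date 2, none called. With a slide term NRT1.8 was called for salt in Cabernet Sauvignon (1.25) and in 140 Ruggeri with salt against K51-40 (0.7) and Cabernet Sauvignon (0.71), and its response in 140 Ruggeri against K51-40 was 0.34 and 0.12 on the 2 probes, turned in sign. With only the groups compared, NRT1.8 in 140 Ruggeri against K51-40 controls was called (0.61). With a replicate block over all arrays, NRT1.8 was called for salt in Cabernet Sauvignon (1.02), in 140 Ruggeri against K51-40 controls (0.63) and against Cabernet Sauvignon with salt (0.7), and NRT1.5 in 140 Ruggeri against Cabernet Sauvignon controls was not (−0.5). With the block within each variety, NRT1.8 for salt in Cabernet Sauvignon was called (1.02 and 1.03, limma adjusted p = 0.00885 and 0.00302), where 3 of the 4 numbered pairs deviated together and replicate 3 did not; apart from the second probe in K51-40 (0.61) this block changed no other salt call.

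With single arrays left out, the ranges were 0.84 to 1.23 for NRT1.8 with salt in Cabernet Sauvignon, −0.15 to 0.75 in 140 Ruggeri (second probe −0.2 to 0.6), and 0.71 to 0.89 for NRT1.8 in K51-40 against Cabernet Sauvignon controls. NRT1.8 in 140 Ruggeri with salt ranged from −0.05 to 0.85 against K51-40 (called without its salt replicate 1) and from 0.23 to 1.13 against Cabernet Sauvignon (called at 1.13 without the same array and at 0.86 without Cabernet Sauvignon salt replicate 4). NRT1.5 in 140 Ruggeri ranged from −0.64 to −0.42 against Cabernet Sauvignon controls, from −0.71 to −0.4 with salt, and from 0.44 to 0.75 against K51-40 with salt. Differences between responses ranged from −0.66 to 0.24 for NRT1.8 in 140 Ruggeri against K51-40 and from −0.19 to 0.12 for NRT1.5 in 140 Ruggeri against Cabernet Sauvignon (second probe −0.05 to 0.28). Counts of probes called by limma for salt ranged from 14 to 824 in Cabernet Sauvignon (419 as reported), from 0 to 136 in 140 Ruggeri (18) and from 73 to 1623 in K51-40 (1102), and those for differences between responses from 0 to 330 (59), 3 to 9 (5) and 1 to 1325 (353) for 140 Ruggeri against K51-40, 140 Ruggeri against Cabernet Sauvignon and K51-40 against Cabernet Sauvignon. Between control groups the highest counts were 17460, 23785 and 26390 (10766, 15760 and 17057 as reported) for 140 Ruggeri against K51-40 and against Cabernet Sauvignon and K51-40 against Cabernet Sauvignon.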
